A study of Homo sapiens with 6 samples.

Results

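The response to miR-26a was compared between Raji and the other Burkitt lymphoma lines of the series, Namalwa and Ramos. For each gene the change within a line was the log2 intensity on the miR26a array minus that on the empty array. The change within Raji was then set against the mean of the changes within Namalwa and Ramos, and the result is called the difference of responses. All 6 arrays of the series entered, 2 per line, and 12012 genes of 19775 were tested. Every line had 1 sample labelled empty and 1 labelled miR26a. The labels state that the lines were transfected and that microRNA expression was induced with doxycycline at 0.5 µg/ml for 72 h, and they list this treatment for the empty samples as well. They name neither the vector nor a count of clones, so each line and group is a single array of 1 µg of labelled RNA. A difference between Raji and the other lines is therefore a difference of 1 line against 2, and no sample has a replicate.

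All 3 lines are B-cell lines from Burkitt lymphoma, a tumour driven by a translocation that places MYC under immunoglobulin control. Raji and Namalwa carry Epstein-Barr virus and Ramos does not. miR-26a is a small RNA that lowers the level or translation of messenger RNAs that pair with its seed. MYC represses it, and EZH2, the methyltransferase subunit of Polycomb repressive complex 2, is among its published targets. The seed is shown here because targets of the microRNA pair with it. Seed sites were not searched in any gene, so the changes below do not separate direct targets from other genes. The mature miR-26a is made from 2 loci, MIR26A1 and MIR26A2, and both give the same RNA, while miR-26b shares the seed (RefSeq, GRCh38.p14, bases 2 to 8 from the 5′ end in capitals).
hsa-miR-26a-5p (MIR26A1 at chr3:37969413-37969434, plus strand, and MIR26A2 at chr12:57824658-57824679, minus strand): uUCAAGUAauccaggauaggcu
hsa-miR-26b-5p (MIR26B at chr2:218402657-218402677, plus strand): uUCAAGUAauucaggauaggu

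The labelled cell type was borne out by its markers: all 8 B-cell markers on the array lay above the level minimum of 4.42, the median log2 intensity of all probe sets, and their mean per array was 8.71 to 9.52. The marker lists of other cells (T and NK, monocyte, red cell, fibroblast) had array means of 3.62 to 5.20, with 6 of 15, 3 of 10, 3 of 5 and 4 of 9 above the minimum. The array of Namalwa with the empty vector stood apart in RNA integrity. Its 3′ probe set of ACTB exceeded the 5′ probe set by 3.58 log2, against 1.80 to 1.98 on the other arrays. That array enters every Namalwa change, and its part in the differences below was not tested. Values against Ramos alone, which leave that array out, are given for the lists and for genes where they moved the difference by over 1.5 times.

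Raji is 1 pair of arrays, so its own spread was not measured, and the comparison is descriptive. The limma fit takes its only residual degree of freedom from Namalwa against Ramos and assumes that Raji varies like them. Under that assumption, and with the line as a block, 25 genes were past an adjusted p of 0.05, which is 0.208% of those tested. Of these, 15 (0.125%) had the higher change in Raji and 10 (0.0833%) the lower one. Before adjustment, 1045 genes (8.7%) had a p under 0.05, 556 (4.63%) with Raji higher and 489 (4.07%) with Raji lower. The standard errors of the 25 were 0.220 to 0.293 log2, since the fit takes most of its spread from all genes together. The calls depend on that model: none was past the threshold without the line block, none after each array was centred on its median, and none of the 25 without moderation. A difference of at least 1 log2 with no test was found in 37 genes (0.308%) with Raji higher and 31 (0.258%) with Raji lower. The changes within a line had a standard deviation over genes of 0.255 log2 in Raji, 0.283 in Namalwa and 0.225 in Ramos. A change of at least 1 log2 was found in 35 genes in Raji (25 up, 10 down), 55 in Namalwa (31 up, 24 down) and 5 in Ramos (4 up, 1 down).

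**Figure D1:**
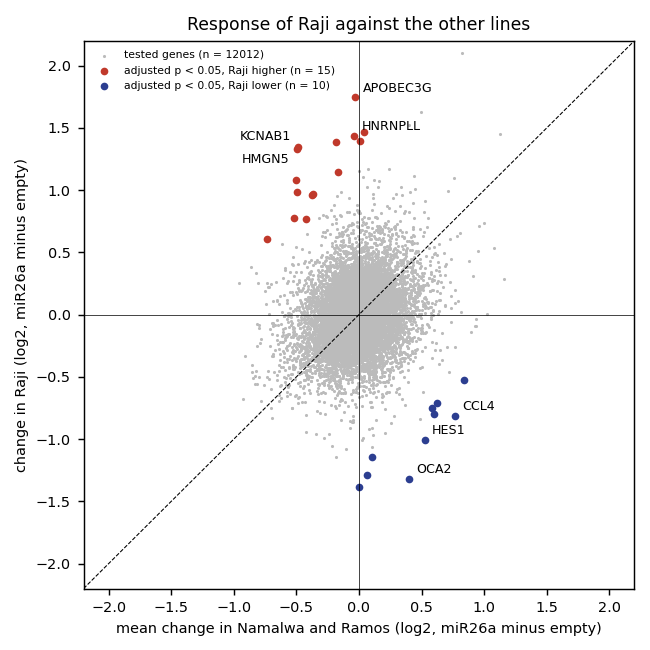
Change in Raji (vertical axis, log2, miR26a minus empty, 1 pair of arrays) against the mean change in Namalwa and Ramos (horizontal axis, log2, 1 pair of arrays each), each point 1 of 12012 tested genes. The dashed line marks equal changes; the 15 red and 10 blue genes passed the limma adjusted p of 0.05 and lie above and below it.

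Among the genes higher in Raji, APOBEC3G, a cytidine deaminase that restricts retroviruses, had the largest difference of those with a mean above the minimum in every line. Its log2 intensity was 4.36 with the empty vector and 6.11 with miR26a in Raji, 7.62 and 7.75 in Namalwa, and 7.0 and 6.82 in Ramos. The difference of responses was 1.78 ± 0.231 (SE; limma adjusted p = 0.00521). The empty array of Raji was below the minimum, and the 2 Raji arrays were the lowest and the next lowest of the 6, so the change narrowed a gap between the lines. With the median over the gene's probe sets the difference was 0.70, and the gene's other probe set above the minimum gave -0.38.

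HNRNPLL, a splicing regulator of lymphocytes, was the other gene of this kind at a high level. Its intensity in Raji was 7.56 with the empty vector and 8.99 with miR26a, in Namalwa 7.56 and 7.61, and in Ramos 6.70 and 6.58. Here the empty arrays of Raji and Namalwa were level, and the miR26a array of Raji was the highest of the 6. The difference was 1.47 ± 0.223 (SE; limma adjusted p = 0.0170).

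ZNF320, a zinc-finger protein gene, differed by 1.57 and SNTB1, a syntrophin of the membrane cytoskeleton, by 1.31. CAPN5, a calcium-dependent protease, differed by 1.39 from Raji levels of 5.11 and 6.50, while Namalwa was at 4.55 and 4.45 and Ramos at 4.11 and 4.22. Both Ramos arrays of CAPN5 were below the minimum. MXD1, the MAX partner that opposes MYC, differed by 1.42, but its empty array in Raji was at 2.99, below the minimum, and its miR26a array at 4.45. RELL1 differed by 1.19 and DST, a cytoskeletal linker, by 1.34. Other probe sets gave 0.12 for ZNF320, 0.16 for MXD1, and 0.42 and -0.01 for DST.

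HMGN5, a nucleosome-binding protein, and KCNAB1, a potassium channel subunit, had differences of 1.83 each, but these rest on Raji values below the minimum, so their size is uncertain. Both genes were tested only because of their levels in the other lines. HMGN5 was at 1.99 and 3.32 there, under the minimum on both arrays, against 7.67 and 7.23 in Namalwa and 8.62 and 8.07 in Ramos. KCNAB1 was at 2.41 and 3.76 in Raji against 5.80 and 5.15 in Namalwa and 6.29 and 5.96 in Ramos. HTATIP2, EPB41L2, CEP15 and CHROMR had both Raji arrays below the minimum as well, with differences of 1.30, 1.34, 1.34 and 1.58, and ZEB2, a transcriptional repressor, had its empty array there with 1.48. Other probe sets gave 0.51, -0.68 and 0.08 for HTATIP2, and -0.44 and 0.07 for EPB41L2. They gave -0.05 for CHROMR, and 0.54 and -0.03 for ZEB2.

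This pattern was common among the 25. Both Raji arrays were below the minimum for 9 of them, whereas 2.61% of all tested genes had this. Raji had the lowest mean level of the lines for 18 of 25, against 37.1% of all tested genes. No array was below the minimum for 7 genes, 4 with Raji higher and 3 with Raji lower. For 10 of the 25 another probe set lay above the minimum. Of these 16 probe sets, 10 had the sign of the main one: 7 of 13 for the genes higher in Raji (-0.68 to 0.54) and 3 of 3 for those lower (-1.13 to -0.15). Whether low signal in Raji accounts for part of the calls was not tested.

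The genes lower in Raji were led by OCA2, a transporter of pigment cells, at 5.31 and 3.99 in Raji, 5.23 and 5.54 in Namalwa, and 5.92 and 6.41 in Ramos. Its difference was -1.72 ± 0.224 (SE; limma adjusted p = 0.00521). The change was negative in Raji and positive in both other lines, and the miR26a array of Raji was the only 1 of the 6 below the minimum.

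CCL4, a chemokine that B cells release on receptor stimulation, was measured well above the minimum on all arrays. It was at 6.78 and 5.97 in Raji, 8.23 and 9.13 in Namalwa, and 9.26 and 9.90 in Ramos, a difference of -1.58 ± 0.228 (SE; limma adjusted p = 0.0133). Raji was lowest on both kinds of array, and the changes of the other lines, 0.90 and 0.64, were of opposite sign to its -0.81. With the 75th percentile of probe sets as the level minimum, CCL4 also passed.

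HES1, a repressor induced by Notch, was higher in Raji than in the other lines with the empty vector and closer to them with miR26a: 6.45 and 5.45 in Raji, 4.28 and 4.89 in Namalwa, and 4.59 and 5.03 in Ramos. The difference was -1.53 ± 0.223 (SE; limma adjusted p = 0.0133), and its second probe set gave -1.13. EPHA4, an ephrin receptor, differed by -1.40, with -0.94 and -0.15 at its other probe sets, and H2AC25, a histone H2A gene, by -1.33.

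GPD2, the mitochondrial glycerol-3-phosphate dehydrogenase, was at 4.51 and 3.12 in Raji but between 6.04 and 6.80 on the other 4 arrays, a difference of -1.39. SPATA19, known from spermatogenesis, showed the reverse arrangement: 7.38 and 6.23 in Raji, and 3.85 to 4.15 elsewhere, a difference of -1.25. All Namalwa and Ramos arrays were below the minimum for SPATA19, which was tested only because of its Raji level. The remaining genes were MYBPC2 at -1.37, TMEM154 at -1.35 and RBM43 at -1.33, all with both Raji arrays below the minimum. For MYBPC2 both Ramos arrays were below it as well. Against Ramos alone each of the 25 kept its direction and a size of at least 1.14 log2, and against Namalwa alone likewise. The 25 were chosen for a large difference from both lines on these same arrays, so this is a description.

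**Figure D2:**
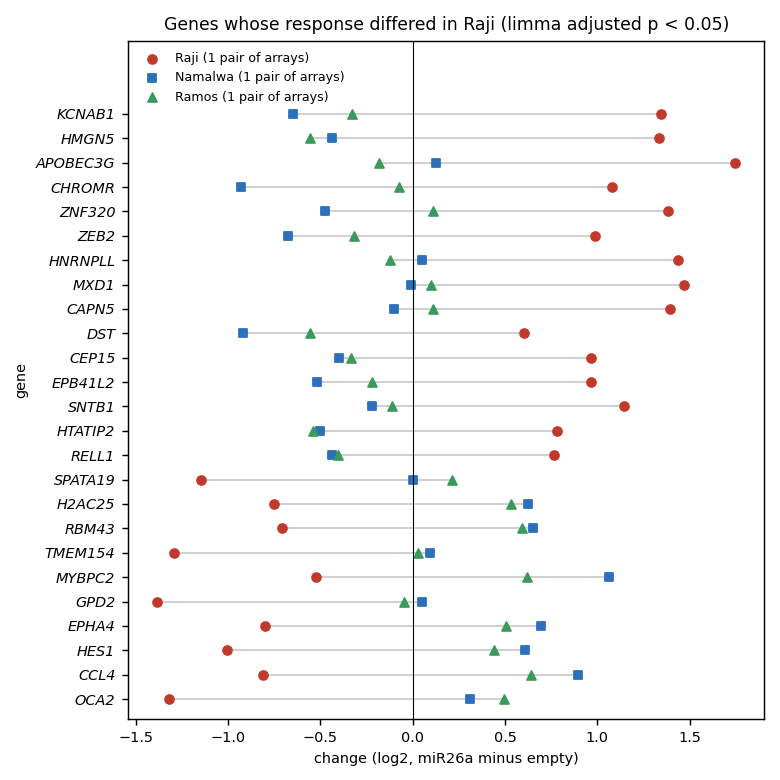
Change (horizontal axis, log2, miR26a minus empty) in Raji, Namalwa and Ramos for the 25 genes (vertical axis) past the limma adjusted p of 0.05, each marker 1 pair of arrays. The Raji marker lies outside the other 2 for all 25 genes, and for 18 genes it lies on the other side of 0 from both. The genes were chosen by these changes, so this is a description.

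Genes with changes of opposite sign were counted by a rule on size, at least 0.5 log2 in Raji and at least 0.5 log2 the other way in both other lines. This gave 2 genes with Raji up, 0.0167% of those tested, and 5 with Raji down, 0.0416%. HTATIP2 and DST formed the first group, and CCL4, EPHA4, H2AC25, MYBPC2 and RBM43 the second. Other probe sets gave differences of 0.51, -0.68 and 0.08 for HTATIP2, 0.42 and -0.01 for DST, and -0.94 and -0.15 for EPHA4. Both Raji arrays were below the minimum for HTATIP2, MYBPC2 and RBM43. The smallest of the 3 changes was 0.50 for HTATIP2, just inside the rule, and 0.46 for SEC24D, just outside. Without a size limit, Raji was up with both others down for 12.4% of all tested genes and the reverse held for 12.7%.

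A response in Raji only was a change of at least 1 log2 there with both other lines under 0.5 log2 in size. It was found upwards in 15 genes (0.125%) and downwards in 9 (0.0749%). For comparison, Namalwa alone gave 18 up (0.15%) and 18 down (0.15%), and Ramos alone 0 up (0%) and 1 down (0.00833%), SLC7A3. No gene changed by 1 log2 in both Namalwa and Ramos without Raji, 0% in either direction. The members just inside and just outside were TRIM68 at 1.01 and CHAC1 at 0.99 for the Raji change. Since these classes were chosen by the changes, their sizes are a description.

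The upward members were APOBEC3G, MXD1, HNRNPLL, CAPN5, ZNF320 and SNTB1, which were also past the test, with ABAT, ANKRD50, C8orf44, DIS3L2, GSTK1, IQCE, OAS1, SH3YL1 and TRAF3IP3. ABAT, the enzyme that degrades the transmitter GABA, was at 4.93 and 6.45 in Raji, 7.13 and 7.50 in Namalwa, and 7.83 and 8.26 in Ramos. Its difference of 1.12 ± 0.221 (SE) had a limma adjusted p of 0.0637, and its other probe sets gave 0.02 and 0.11. For 8 of the 15 no array was below the minimum, and for 6 the empty array of Raji was.

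The downward members were OCA2, GPD2, TMEM154 and SPATA19, past the test, and EDN1, LCK, MGST1, SEPTIN11 and TRIM68. LCK, a Src-family kinase of lymphocyte receptors, was at 7.18 and 6.04 in Raji, 6.41 and 6.43 in Namalwa, and 6.03 and 5.66 in Ramos. It was highest in Raji with the empty vector and between the other lines with miR26a. Its difference was -0.97 ± 0.237 (SE; limma adjusted p = 0.156), with -1.04 at its other probe set. EDN1, the vasoconstrictor peptide endothelin, differed by -1.16. MGST1 and SEPTIN11, at -0.97 and -0.84, were below the minimum on both Raji arrays, as was TMEM154. For 2 of the 9 no array was below the minimum. For 1 of the 9, SPATA19, both other lines were below it on both arrays, so a response there could not be seen.

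Ranking by the distance from the Raji change to the nearer of the other lines, among genes above the minimum in each line, added genes that did not pass the adjusted threshold. ND6, a mitochondrially encoded subunit of complex I, was at 8.70 and 9.04 in Raji, 10.13 and 9.27 in Namalwa, and 10.71 and 9.92 in Ramos. Its difference of 1.16 had a limma adjusted p of 0.0506. FGR and PLEK, a Src-family kinase and a substrate of protein kinase C in blood cells, had differences of -1.09 and -1.16, each with a limma adjusted p of 0.0675. Both were highest in Raji: PLEK was at 10.70 and 9.75 there, 6.78 and 7.17 in Namalwa, and 5.94 and 5.97 in Ramos. FAM76B, TRAPPC13 and APBB2 differed by 1.18, 1.09 and 1.06, but other probe sets of each were lower (-0.46 to 0.18, 0.07, and -0.22 to 0.67), and MAP3K5-AS2, MLLT11 and PML by -1.03, -0.96 and -0.94.

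The targets that the literature assigns to miR-26a had their median change nearest to 0 in Raji. Of 53 tested of 65 listed, 44 were down in Namalwa, 40 in Ramos and 32 in Raji, while 6278, 6181 and 6371 of all 12012 genes were. The median change was -0.34, -0.21 and -0.08 log2. The median difference of responses was 0.22 and that of all tested genes -0.00. The Raji change lay above both others for 37 of 53 and below both for 7, where 34.9% and 35.7% of all tested genes lay above and below. None passed the adjusted threshold. At an unadjusted p under 0.05 there were 10 with Raji higher and 0 with Raji lower, against 4.63% and 4.07% of all tested genes. The median difference was 0.26 against Namalwa alone and 0.17 against Ramos alone, and 45 of 73 further probe sets of these genes were above 0 with a median of 0.14. Raji had the lowest of the 3 empty arrays for 31 of the 53 genes and for 4444 of all 12012.

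EZH2 itself was lower with miR26a in all lines, at 8.01 and 7.70 in Raji, 9.63 and 8.87 in Namalwa, and 9.77 and 9.16 in Ramos. The array with miR26a thus held 80.5% of the empty value in Raji, 58.9% in Namalwa and 65.7% in Ramos. The difference of 0.37 was not past the threshold (95% interval -0.10 to 0.85; limma adjusted p = 0.691). Raji started from the lowest EZH2 level, and its empty array was below the miR26a arrays of both other lines. Of the other 11 Polycomb complex 2 genes, AEBP2, an accessory DNA-binding subunit, had the largest difference at 0.66 with an adjusted p of 0.352. The core subunits SUZ12 and EED differed by 0.14 and 0.13, and the complex as a whole had a median of 0.09, but 0.03 against Ramos alone and 0.11 against Namalwa alone. The Raji change was above both other lines for 6 of 12 members, against 34.9% of all tested genes.

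LIN28B, which blocks maturation of the let-7 microRNAs, was the listed target with the largest difference. It was at 5.60 and 6.40 in Raji, 10.13 and 9.84 in Namalwa, and 9.98 and 9.74 in Ramos. Raji was thus far below the other lines on both arrays, with a positive change where theirs were negative. The difference of 1.06 ± 0.220 (SE) had a limma adjusted p of 0.0721. It was past the threshold in 2 of 11 alternatives, the stricter level minimum (adjusted p = 0.0167) and the intensity trend (0.00926), and its adjusted p ranged up to 1.00 without the line block.

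FBXO11, the ubiquitin ligase subunit that degrades BCL6, was at 8.04 and 8.46 in Raji, 9.34 and 8.98 in Namalwa, and 9.15 and 8.94 in Ramos. Its difference was 0.70 (adjusted p = 0.326), and its other probe sets gave 0.45 and 0.39. KPNA2, an importin, was down in every line, by -0.12 in Raji, -0.79 in Namalwa and -0.64 in Ramos. CHORDC1 and CDK8, a co-chaperone and a kinase of the Mediator complex, showed the same arrangement with differences of 0.56 each, and PLAG1, ADAM17 and CPEB2 had 0.64, 0.59 and 0.55.

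The class II genes of the major histocompatibility complex present peptides to helper T cells and are held on in B cells by the coactivator CIITA and the RFX factors. Most of them were lower with miR26a in Raji and higher with it in the other lines. Of 17 tested of 19 listed, the Raji change lay below both others for 14 and above both for 1, where 35.7% and 34.9% of all tested genes did. The median change was -0.14 in Raji, 0.50 in Namalwa and 0.26 in Ramos, and the median difference was -0.54. Raji was down with both others up for 10 of the 17, against 12.7% of all tested genes. No member passed the adjusted threshold, where the smallest limma adjusted p was 0.0955. An unadjusted p under 0.05 was found for 10, all with Raji lower, against 4.07% of all tested genes. Against Ramos alone the median was -0.47 and against Namalwa alone -0.63. At 19 further probe sets of 10 of the genes, 16 were below 0 and the median was -0.55. Several HLA genes are so alike that their probe sets may read more than 1 of them.

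HLA-DRA, the alpha chain of the DR molecules, was at 11.98 and 11.70 in Raji, 10.95 and 11.76 in Namalwa, and 10.67 and 11.16 in Ramos. Raji was highest of the empty arrays, and with miR26a it was level with Namalwa. The difference was -0.94 ± 0.232 (SE; limma adjusted p = 0.166), and -1.0 at the other probe set.

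HLA-DQB1 was at 8.36 and 7.90 in Raji, 6.32 and 7.37 in Namalwa, and 6.14 and 6.53 in Ramos, a difference of -1.18 with an adjusted p of 0.106. All 5 of its other probe sets were below 0, from -1.53 to -0.41. HLA-DPB1, at 10.62 and 10.25 in Raji, 8.67 and 9.44 in Namalwa, and 8.39 and 8.94 in Ramos, differed by -1.03 with the list's smallest adjusted p of 0.0955. In all 3 of these genes the lines were closer together with miR26a than with the empty vector.

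HLA-DRB4 differed by -1.02, HLA-DRB1 by -0.74 and HLA-DPA1 by -0.54. HLA-DMA and HLA-DMB, which load peptides, differed by -0.78 and -0.52 (-0.50 and -0.28 against Ramos alone), and HLA-DOA and HLA-DOB, which regulate them, by -0.52 and -0.62. HLA-DQA1 differed by -0.88 (-0.41 against Ramos alone), but both Raji arrays were below the minimum at 3.49 and 3.77. CD74, the invariant chain, differed by -0.39 and the protease CTSS by -0.29 (-0.02 against Ramos alone). Other probe sets of CTSS gave 1.08, in the opposite direction, and -0.25. At their main probe sets the regulators were nearest to 0, with -0.24 for CIITA (-0.44 against Ramos alone) and 0.06 for RFXANK. RFX5 had -0.00 and RFXAP 0.14 (each -0.09 against Ramos alone). Their other probe sets gave -0.28 for RFX5 and -0.55 for RFXAP, with Raji below both other lines. Against Ramos alone CIITA was farther from 0 than HLA-DMB, HLA-DQA1, CD74 and CTSS. Raji had the highest empty array for 12 of the 17, against 45.3% of all tested genes.

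With the stricter level minimum, HLA-DQB1, HLA-DPB1, HLA-DRB4 and HLA-DRA were past the adjusted threshold, and with the intensity trend HLA-DPB1 and HLA-DRA were. No other alternative placed any of the 4 there, and their adjusted p ranged up to 1.00 without the line block.

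**Figure D3:**
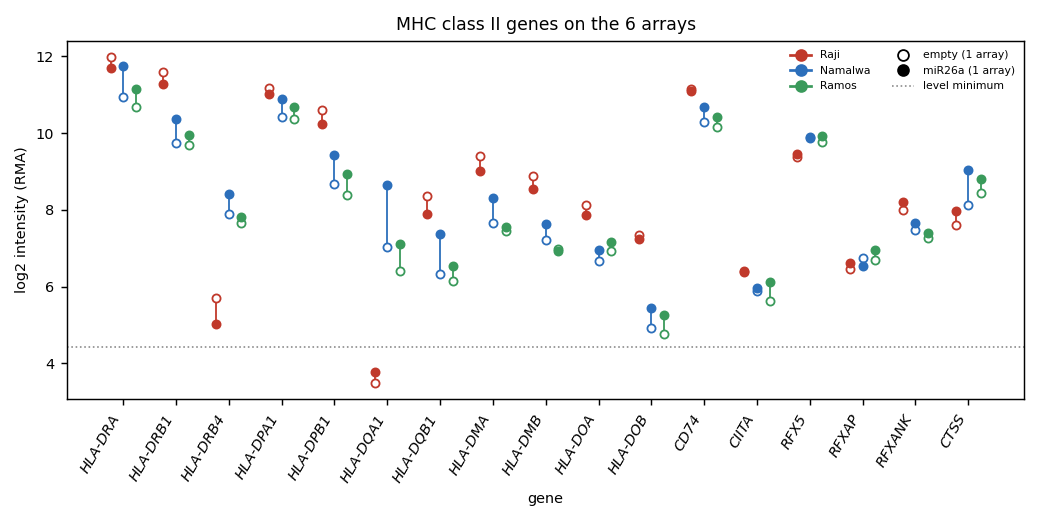
Log2 intensity (vertical axis) of the 17 tested class II genes (horizontal axis) on the 6 arrays, with open points for empty and filled points for miR26a, 1 array each, and the level minimum dotted. For HLA-DRA, HLA-DPB1 and HLA-DQB1 the Raji line runs down and the Namalwa and Ramos lines run up.

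The promoters of class II genes share a Y box, which binds the factor NF-Y beside the RFX site. The letters CTGATTGG were searched on both strands in the 250 bases before each start (RefSeq, GRCh38.p14). They were found in 4 of the 13 class II genes with a promoter in the table, HLA-DRB1, HLA-DQB1, HLA-DMA and RFX5, in 4 of 16 class I promoters and in 3.98% of all 27305 promoters. The stretches of HLA-DQB1 and HLA-DRB1 are shown as examples of class II genes with the motif, which is in capitals. The match is a description and marks no bound site.
HLA-DQB1 (chr6:32666711-32666778, minus strand): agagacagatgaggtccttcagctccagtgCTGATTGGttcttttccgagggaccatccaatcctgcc
HLA-DRB1 (chr6:32589860-32589927, minus strand): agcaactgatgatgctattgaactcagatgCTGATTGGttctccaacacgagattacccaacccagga

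Class I presentation genes showed a smaller shift whose size varied with the line compared. The median change was 0.02 in Raji, 0.31 in Namalwa and 0.06 in Ramos over 19 genes. The median difference was -0.19, with -0.39 against Namalwa alone and -0.07 against Ramos alone. The Raji change was below both others for 12 of 19, against 35.7% of all tested genes. PDIA3, PSMB10 and ERAP2, which fold, cut and trim for the class I pathway, differed by -0.65, -0.58 and -0.56 (-0.40 for PDIA3 against Ramos alone), and B2M, the shared light chain, by 0.38. None was past the adjusted threshold, and 3 had an unadjusted p under 0.05, all with Raji lower, against 4.07% of all tested genes.

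Interferon-stimulated genes are induced through STAT factors and carry antiviral functions. They were higher with miR26a in Raji and Namalwa, with median changes of 0.35 and 0.33, and less so in Ramos, with 0.10, over 36 tested of 49 listed. The median difference was 0.15, but it was -0.01 against Namalwa alone and 0.27 against Ramos alone, so its sign turned on the line compared. The Raji change was above both others for 18 of 36 and below both for 8, where 34.9% and 35.7% of all tested genes were. None passed the adjusted threshold. An unadjusted p under 0.05 was found for 5 with Raji higher and 2 with Raji lower, against 4.63% and 4.07% of all tested genes.

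IFIT1, which binds foreign RNA, was at 3.78 and 5.88 in Raji, 4.44 and 5.85 in Namalwa, and 4.79 and 5.03 in Ramos. Its change of 2.10 was the largest of the list in Raji, and the miR26a arrays of Raji and Namalwa ended level. The difference of 1.28 ± 0.345 (SE) had a limma adjusted p of 0.222, and it was 0.69 against Namalwa alone and 1.86 against Ramos alone. The empty array of Raji was below the minimum for IFIT1 and for SAMD9.

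SAMD9, an antiviral restriction factor, was at 3.0 and 4.63 in Raji, 6.38 and 7.19 in Namalwa, and 7.03 and 7.20 in Ramos, a difference of 1.13 with an adjusted p of 0.127 and 0.41 at its other probe set. OAS1, the sensor of double-stranded RNA, was at 5.88 and 6.95 in Raji, 7.43 and 7.64 in Namalwa, and 7.07 and 7.17 in Ramos. Its difference was 0.91 (adjusted p = 0.151), with 0.97 at the other probe set, and it passed in 1 of 11 alternatives, the stricter level minimum (adjusted p = 0.0473). For these 3 genes the empty array of Raji was the lowest of the 6. Of the 36 listed genes, 23 had their lowest empty array in Raji, against 4444 of all 12012. IFITM3 and IFITM2, membrane proteins that block virus entry, differed the other way, by -0.48 and -0.53.

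An interferon response element was written as GAAA, any 2 letters and GAAA again and searched in the same way. It was in 14 of 28 promoters of the list, in 6 of 16 class I promoters and in 3.07% of all promoters. The stretches of IFIT1 and SAMD9 are shown because these genes had the largest differences of the list; capitals mark the motif, which lies on the opposite strand in IFIT1.
IFIT1 (chr10:89392477-89392559, plus strand): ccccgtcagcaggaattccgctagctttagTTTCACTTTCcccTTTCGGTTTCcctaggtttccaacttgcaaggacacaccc
SAMD9 (chr7:93118076-93118145, minus strand): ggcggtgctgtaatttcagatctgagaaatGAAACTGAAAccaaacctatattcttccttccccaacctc

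Genes of the cell cycle were lower with miR26a in every line, by nearly the same median. For 53 genes of G1/S and DNA replication the median change was -0.35 in Raji, -0.35 in Namalwa and -0.37 in Ramos, with a median difference of 0.00 (-0.01 against Ramos alone). For 59 genes of G2/M and mitosis it was -0.40, -0.41 and -0.38, with 0.03 (-0.02 against Ramos alone). The Raji change was above both others for 17 and 20 genes and below both for 20 and 20, against 34.9% and 35.7% of all tested genes. None passed the adjusted threshold, and an unadjusted p under 0.05 was found for 1 gene of the first list (Raji lower) and 3 of the second (1 higher, 2 lower). Over all tested genes the shares were 4.63% with Raji higher and 4.07% with Raji lower. CDC25C, the phosphatase that activates CDK1, had the largest difference of these lists at -0.84, from 6.12 and 5.37 in Raji, 5.30 and 5.56 in Namalwa, and 5.39 and 5.32 in Ramos (limma adjusted p = 0.244), with -0.25 at its other probe set. ORC1 of the origin recognition complex differed by -0.53.

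**Figure D4:**
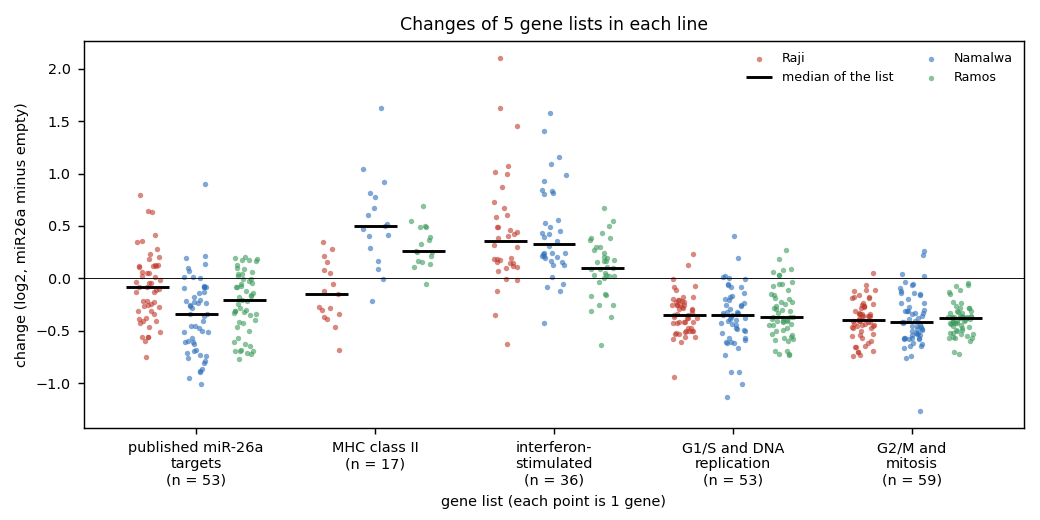
Change (vertical axis, log2, miR26a minus empty) of every tested member of 5 gene lists (horizontal axis) in Raji, Namalwa and Ramos, each point 1 gene and 1 pair of arrays, with black bars at the list median. The Raji median is nearer 0 for the published targets (-0.08) and below 0 for class II genes (-0.14), and the medians of the cell cycle lists lie between -0.41 and -0.35 in all lines.

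Signalling genes of B cells gave smaller shifts. For 35 genes of NF-kB and Epstein-Barr virus induction the median difference was -0.12, but -0.04 against Namalwa alone and -0.03 against Ramos alone. The Raji change was below both others for 16 and above both for 8, where 35.7% and 34.9% of all tested genes were; CCL4 was the member past the test, and FCER2, the low-affinity IgE receptor, differed by -0.70. For 29 B-cell receptor genes it was -0.13 (-0.10 against Ramos alone), with 16 below and 6 above, including LCK and the phosphatase PTPN6 at -0.62. For 20 plasma cell genes it was -0.23 (-0.18 against Ramos alone), with 12 below and 3 above. CD38 was at -0.66 (-0.42 against Ramos alone) and TNFRSF13B at -0.63. In the opposite direction, 17 TGF-beta and SMAD genes had a median of 0.16 (0.18 against Ramos alone), with 11 above and 3 below. SKIL, a repressor of SMAD signalling, and BMPR2, a receptor for bone morphogenetic proteins, each differed by 0.86, with limma adjusted p-values of 0.209 and 0.193. Other probe sets gave 0.20 for SKIL and 0.06, -0.34, 0.26 and 0.57 for BMPR2. Apart from CCL4, no member of these 4 lists was past the adjusted threshold. At an unadjusted p under 0.05 there were 3, 2 and 3 members of the first 3 lists with Raji lower, and 4 of the TGF-beta list with Raji higher, against 4.07% and 4.63% of all tested genes.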

How the data were processed

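RNA from 6 samples was measured on Affymetrix U133 Plus 2.0 arrays. The authors, as the labels' design text states, computed the log2 intensities by RMA in BRB Array Tools. GCOS and RMA stand in the submitters' processing notes with no version. RMA gives all arrays 1 distribution, so a shift of all RNAs would not show. Of 54675 probe sets, 62 controls were left out, 41091 had 1 gene symbol, 1801 several and 11721 none; symbols were updated through RefSeq (GRCh38.p14). A gene was taken at its brightest probe set, with a mean of at least 4.42.

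The difference was fitted in limma (3.58.1, R 4.3.3), and the line was a block. The contrast of Raji against the mean of Namalwa and Ramos leaves 1 residual degree of freedom, moderated by 13.5 prior degrees with a prior SD of 0.132, with Benjamini-Hochberg adjustment over 12012 genes. The lone Raji change is assumed to vary like the others. With 1 of 3 lines, an exact permutation cannot go below 0.333. No label tells of repeated cultures, so p-values measure only the spread between these arrays. Alternatives were scaling, level minimum, probe set rule, variance model, block, size thresholds and the line compared.

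The comparison, the 31 gene lists and the naming rule were chosen with earlier results of these data known. The rule takes the 12 genes per direction farthest from both other lines, up to 10 opposite-sign and 8 Raji-only genes per direction, EZH2, all class II genes and up to 4 members of each other list; further members were named after their values were seen. The number of arrays limits the precision. Mature microRNA and promoter sequences are from RefSeq.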

Additional observations from a re-analysis of the deposited data

Results flagged for a closer look

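For 25 genes the difference of responses was past an adjusted p of 0.05 in limma (12012 genes tested). The fit has 1 pair of arrays for Raji and 1 residual degree of freedom, and none of the 25 was past the threshold after centring each array, without moderation or without the line block. In log2, Raji was lower for OCA2 (-1.72), CCL4 (-1.58), HES1 (-1.53), EPHA4 (-1.40), GPD2 (-1.39), MYBPC2 (-1.37), TMEM154 (-1.35), RBM43 (-1.33), H2AC25 (-1.33) and SPATA19 (-1.25). Raji was higher for RELL1 (1.19), HTATIP2 (1.30), SNTB1 (1.31), EPB41L2 (1.34), CEP15 (1.34), DST (1.34), CAPN5 (1.39), MXD1 (1.42), HNRNPLL (1.47), ZEB2 (1.48), ZNF320 (1.57), CHROMR (1.58), APOBEC3G (1.78), HMGN5 (1.83) and KCNAB1 (1.83). Both Raji arrays were below the level minimum for 9 of the 25, HMGN5 and KCNAB1 among them. Those genes were tested only because of their levels in the other lines. For SPATA19 all Namalwa and Ramos arrays were below the minimum. The median difference of the class II genes (-0.544) is listed because the median change had the opposite sign in Raji from that in both Namalwa and Ramos; this difference of the list was not tested.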

How the results depend on the processing

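All 25 called genes kept their direction under every alternative in which they could be fitted. They were chosen for a large difference on these same arrays, so a kept direction is no separate support. The number past the adjusted threshold moved. It was 0 after centring each array on its median (smallest adjusted p 0.118, with 7.48 prior degrees of freedom), 0 with centring plus an intensity trend and robust prior, an alternative chosen after seeing the data (smallest adjusted p 0.0617), and 0 without the line block. It was 2 without moderation, neither among the 25, 3 with the median over probe sets, 10 after a further quantile normalisation (6 higher, 4 lower), 14 without probe sets ending in _s_at or _x_at (7 and 7), 40 with a stricter level minimum (75th percentile of probe sets) and 42 with the intensity trend and robust prior; loess within lines gave 29 (19 and 10). Genes at an unadjusted p under 0.05 numbered 1579 without a level minimum, 684 without moderation and 152 without the block. Differences of at least 1 log2 (68 genes) numbered 29 with the stricter minimum, 30 with the median over probe sets, 73 to 140 when Namalwa or Ramos was left out, 227 at 0.75 log2 and 8 at 1.5 log2. The 7 opposite-sign genes became 3 with quantile normalisation or the median over probe sets, 4 with loess, 2 with the stricter minimum, 12 to 24 without Namalwa or Ramos, 54 at 0.3 log2 and 0 at 0.75 log2. The 24 Raji-only genes became 14 with quantile normalisation, 40 without a minimum, 11 with the stricter one, 12 with the median over probe sets, 87 at 0.75 log2, 2 at 1.5 log2, and 25 to 32 with a line left out. Genes changed in both other lines but not Raji (0) numbered 1 with quantile normalisation, 9 at 0.75 log2, 3 without Namalwa and 45 without Ramos. The cause was not tested. Over 10 alternatives the median of the class II genes ran from -0.625 to -0.410, that of the published targets from 0.167 to 0.267 and that of the interferon-stimulated genes from -0.0059 to 0.270. The arrays are paired by line, and that block is in the main design; the labels give no replicate numbers.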

Other observations

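Genes at higher levels gave further values under a stricter level minimum, the 75th percentile of probe sets, where 7151 genes were tested. Past the limma adjusted threshold of 0.05 there, with Raji higher, were LEF1, a WNT-pathway transcription factor (1.06), TNFRSF21, a death receptor (1.13), KIF1B, a kinesin (0.99), and RASSF3 (1.24). With Raji lower were TSC22D3, a glucocorticoid-induced leucine zipper protein (-1.32), ARRDC4, an arrestin-domain protein (-1.0), NCF1, a subunit of the NADPH oxidase (-0.96), ABCA1, a cholesterol exporter (-1.10), and PNOC, a neuropeptide precursor (-0.91). These genes were chosen after their values were seen, and none was past the threshold in the main fit of all 12012 genes. With the intensity trend and robust prior over those genes, LEF1, TNFRSF21, RASSF3 and ABCA1 were past it.

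The amino acid supply and integrated stress response genes had a median change of -0.35 in Raji, -0.19 in Namalwa and -0.18 in Ramos over 35 tested members, a median difference of -0.13, and the same against Ramos alone. None was past the adjusted threshold. Of the members, CHAC1 differed by -0.71, SLC38A2 by 0.67 and STC2 by 0.65 (0.32 against Ramos alone). For STC2 both Raji arrays were below the minimum, and its other probe set gave 0.16.

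Immediate early genes had a median difference of -0.18 over 19 tested members, with 10 below both other lines and 6 above, where 35.7% and 34.9% of all tested genes were. It was -0.16 against Ramos alone. Genes of the small RNA machinery had 0.16, with 10 of 19 above and 7 below, but 0.04 against Ramos alone and 0.24 against Namalwa alone. Ribosomal protein genes (-0.10, and -0.07 against Ramos alone), the oxidative phosphorylation genes (-0.07, and -0.02 against Ramos alone), the 21 listed core and linker histones (-0.08, and 0.04 against Ramos alone), p53 targets (-0.05), sterol synthesis (-0.04), germinal centre factors (-0.04, and -0.18 against Ramos alone), MYC-induced genes (-0.04), the BCL2 family (-0.02), heat shock genes (-0.02) and hypoxia genes (0.01) lay nearer to 0, the last 4 and the p53 and sterol lists at -0.05 to 0.03 against Ramos alone, and no listed member was past the adjusted threshold. The histone gene H2AC25, which was past it, is not on the histone list. Though their medians were small, the Raji change lay below both other lines for 17 of 25 ribosomal protein genes and above both for 5. For the oxidative phosphorylation genes it lay below both for 17 of 36 and above both for 8. DIS3L2, which degrades uridylated let-7 precursors, differed by 0.97 in the small RNA list (0.53 against Ramos alone), while its other probe sets gave 0.04, -0.11 and 0.42.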
